A study of Mus musculus with 6 samples.

Results

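The Twist, Snail and Zeb factors are 3 pairs of paralogous transcription factors, Twist1 and Twist2, Snai1 and Snai2, and Zeb1 and Zeb2, whose transcripts were compared between the anterior and the posterior palate of the mouse. They were chosen by gene symbol and not by a measured value, and all 6 symbols were found among the 56691 gene identifiers of the deposited count tables. The samples are bulk RNA-seq libraries of microdissected palatal shelves of C57BL/6J embryos at E14.0, with 3 libraries of the anterior 1/3 and 3 libraries of the posterior 1/3 of the shelves and no genetic change or treatment named for either group. The libraries hold all cell types of the shelf, so fewer cells of a type and less RNA per cell cannot be told apart. The labels give neither the number of embryos behind a library nor their sex. The study describes the 6 libraries as biologically independent, and p-values measure the spread between these libraries.

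Twist factors are basic helix-loop-helix proteins that bind the E-box motif CANNTG as dimers, often with an E protein such as Tcf3, Tcf4 or Tcf12, while Id proteins capture E proteins and keep such dimers off DNA. Snail and Zeb factors are zinc-finger repressors that bind the E-box CAGGTG, which reads CACCTG on the other strand, in epithelial genes such as Cdh1 and recruit corepressor complexes. All are known for their part in epithelial-mesenchymal transition and in the neural crest, the source of most of the palatal mesenchyme, and Twist1 is a classic regulator of craniofacial mesenchyme.

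The reverse-stranded counts added up to between 11378736 and 15172733 per library, so that a count of 0 allows a level of up to 3 counts, or 0.205 to 0.259 CPM, the normalized read count scaled to a common library size. Posterior replicates 2 and 3 stood apart from the other 4 libraries. Their multiply mapped reads came to 6.12% and 5.94%, compared with 8.45% to 8.77% elsewhere, and their mitochondrial counts to 0.973% and 1.14%, compared with 2.70% to 2.97%. As both are posterior, no comparison of the regions is possible within them, and a fit with a library-group term, which sets these 2 libraries apart, takes the region difference from posterior replicate 1 and the anterior libraries. Its posterior arm is then 1 library, which is assumed to vary like the others, so that its p-values speak of that library more than of the region. This fit called 7.61% of all genes tested, and the fit without posterior replicate 1 called 46.4%. For the lists of partners, cofactors and targets, values from both fits are given where they change the number called. The calls of cell type markers come from the fit on all 6 libraries and were not recomputed in the others. Prrx1, a marker of cranial mesenchyme, was at 389 to 1076 CPM and a list of 8 epithelial markers added up to 1286 to 2359 CPM, so that both main tissues of the shelf were present in each library.

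By the GENCODE M21 annotation (GRCm38), Twist1 lies at chr12:33957671-33959829 and Twist2 at chr1:91801461-91848028, both on the plus strand. Snai1 lies at chr2:167538195-167542814 and Snai2 at chr16:14705852-14709385, also on the plus strand. Zeb2 lies at chr2:44983632-45117395 on the minus strand. The merged exons were 1628 bases long for Twist1, 3174 for Twist2, 1621 for Snai1, 2021 for Snai2, 10266 for Zeb1 and 19942 for Zeb2, so the Zeb transcripts are the long ones among these factors.

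The RefSeq promoter table (GRCm38.p6) held 4 of the 6 factors, Twist1, Twist2, Snai1 and Zeb2. The 250 bases before the start site of both Twist genes are shown because their transcripts stood higher in the posterior libraries, and those of Snai1 because its transcript did not. Capitals mark any E-box CANNTG and any CCAAT box, read on both strands, and the search for the CCAAT box was chosen after the sequences were seen.
Twist1, chr12:33957421-33957670, plus strand: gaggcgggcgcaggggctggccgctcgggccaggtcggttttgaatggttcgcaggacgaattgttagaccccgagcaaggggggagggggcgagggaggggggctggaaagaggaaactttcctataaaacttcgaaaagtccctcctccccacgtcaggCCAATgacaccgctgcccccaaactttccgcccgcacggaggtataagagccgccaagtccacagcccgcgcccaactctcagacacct
Twist2, chr1:91801211-91801460, plus strand: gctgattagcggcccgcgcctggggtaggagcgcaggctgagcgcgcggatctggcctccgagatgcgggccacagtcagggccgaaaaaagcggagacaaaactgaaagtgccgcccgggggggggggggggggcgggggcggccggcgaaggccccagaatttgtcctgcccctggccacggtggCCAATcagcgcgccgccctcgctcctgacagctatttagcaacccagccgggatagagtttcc
Snai1, chr2:167537945-167538194, plus strand: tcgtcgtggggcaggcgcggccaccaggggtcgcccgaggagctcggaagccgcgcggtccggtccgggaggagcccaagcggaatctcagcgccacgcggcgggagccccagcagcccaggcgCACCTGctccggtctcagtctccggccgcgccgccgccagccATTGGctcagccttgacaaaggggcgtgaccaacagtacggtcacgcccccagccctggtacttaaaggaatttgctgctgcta
Neither Twist window held an E-box. Snai1 held a single E-box, CACCTG, whose first base lies 126 bases before the start, and this is the form that Snail and Zeb factors bind. Each of the 3 windows held a single CCAAT box, which begins 89 bases before the start in Twist1, 63 in Twist2 and 84 in Snai1. The 4 listed start sites of Zeb2 held no E-box. Among the same 250 bases of all 27025 promoters in the table, 66.0% held a CANNTG, 17.1% a CAGGTG or CACCTG and 34.5% a CCAAT box.

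Of the epithelial genes known to be repressed by Snail and Zeb factors, 13 had a promoter in the table. Of these, 8 (61.5%) held CAGGTG or CACCTG, beside 17.1% of all promoters. Any CANNTG was held by 61.5% of them, beside 66.0% of all promoters. Among the mesenchymal-state genes 0 of 11 held CAGGTG or CACCTG. As the epithelial list was chosen as known targets of factors that bind this motif, its share is no test of the factors. A match describes these letters and is no evidence of binding. Windows around 1 E-box in each of 4 of these epithelial genes are shown, with the motif in capitals, since their transcripts are read against those of the factors further on.
Epcam, chr17:87635940-87635978, plus strand: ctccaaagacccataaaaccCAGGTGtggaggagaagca
Cldn4, chr5:134946935-134946968, minus strand: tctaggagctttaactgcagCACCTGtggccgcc
Krt8, chr15:102004428-102004473, minus strand: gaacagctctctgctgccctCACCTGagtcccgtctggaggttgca
Muc1, chr3:89228966-89229011, plus strand: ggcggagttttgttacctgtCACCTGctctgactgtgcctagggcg
The first base of the motif lies 19 bases before the start in Epcam, 14 in Cldn4, 111 in Krt8 and 70 in Muc1. Epcam and Muc1 held 2 matches each within the 250 bases, of which the one nearest to the start is shown.

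Of the 6 factors, Twist1 and Zeb1 were higher in the posterior palate, with adjusted p-values below 0.05 in edgeR's quasi-likelihood test (Benjamini-Hochberg over 15673 genes), and 0 were higher in the anterior palate. Over all genes tested 4.87% were called higher in the posterior, 2.59% higher in the anterior and 7.46% in either direction. The values of Twist1, Twist2 and Zeb1 did not overlap between the regions, which was so for 28.0% of all genes tested. The median log2 fold change, posterior over anterior, was 0.46 over the 6 factors and -0.0039 over all genes tested. Zeb1 and Zeb2 were the middle values, and with a correction for merged exon length they were 0.29 and -0.12.

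**Figure D1:**
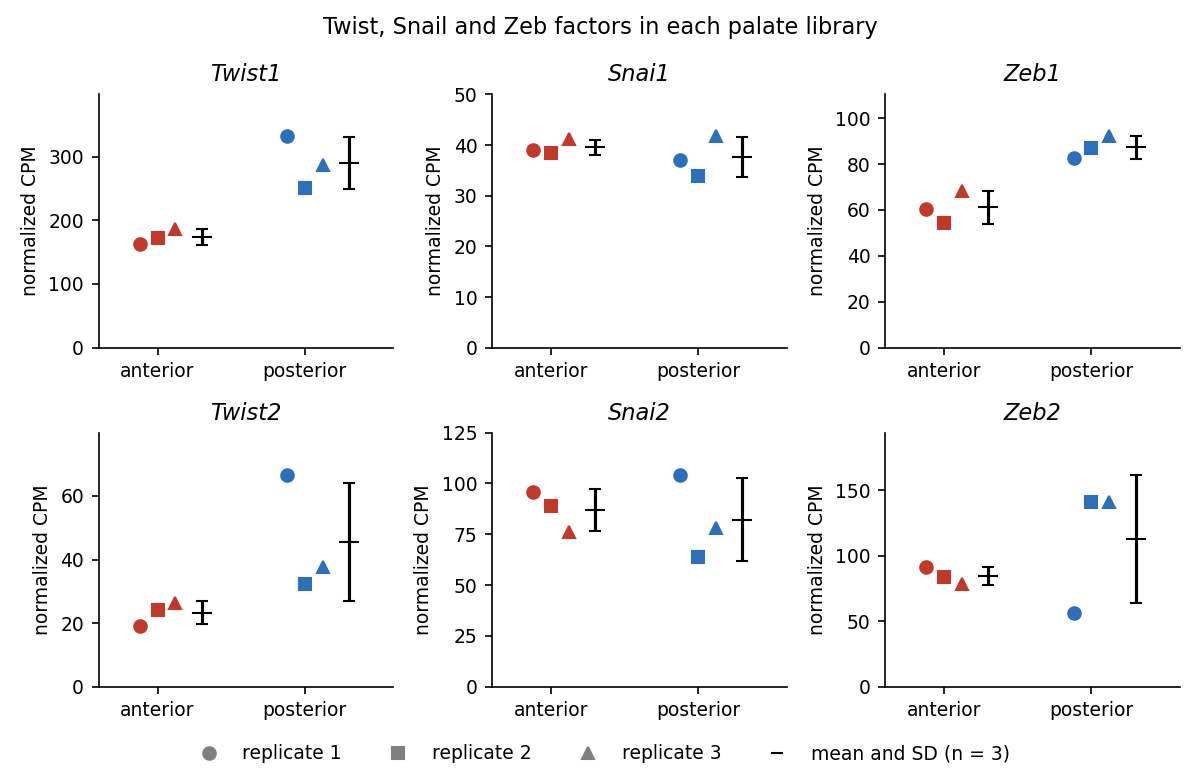
Normalized CPM (vertical axes, from 0) of each factor in the 3 anterior (red) and 3 posterior (blue) libraries, with replicates 1, 2 and 3 as circles, squares and triangles and the mean and SD beside them. Twist1, Twist2 and Zeb1 do not overlap between regions, and Zeb2 splits the posterior libraries into 56.3 CPM in replicate 1 and 141 CPM in replicates 2 and 3.

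Twist1, the regulator of craniofacial mesenchyme, was higher in the posterior palate. Its level was 163, 172 and 187 CPM in anterior replicates 1, 2 and 3 and 333, 251 and 287 CPM in posterior replicates 1, 2 and 3. Every posterior library stood above every anterior library, and posterior replicate 1 was the highest. The means were 174 ± 12.1 and 290.4 ± 40.7 CPM (SD, n = 3 each), a log2 fold change of 0.74 (SE 0.125, 95% interval 0.45 to 1.03, edgeR adjusted p = 0.0129), or 1.67-fold. The call was lost when anterior replicate 1 (adjusted p = 0.0843) or anterior replicate 2 (adjusted p = 0.0822) was left out, with log2 fold changes of 0.69 and 0.73. Without posterior replicate 1 the log2 fold change was 0.64, and over the 10 alternatives with all libraries it ranged from 0.69 to 0.94 and was called in each of them.

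Twist2, which is close to Twist1 in sequence and is known from dermal and craniofacial mesenchyme, was at 19.2, 24.2 and 26.3 CPM in the anterior replicates and at 66.6, 32.2 and 37.6 CPM in the posterior replicates. The regions did not overlap, and posterior replicate 1 stood well above replicates 2 and 3. With means of 23.2 ± 3.64 and 45.5 ± 18.5 CPM (SD, n = 3 each), the log2 fold change was 0.97 (SE 0.28, 95% interval 0.32 to 1.61) and did not pass the test (edgeR adjusted p = 0.0832). Without posterior replicate 1 the log2 fold change was smaller, 0.59, and passed (adjusted p = 0.0104), and with the library-group term, which rests on posterior replicate 1, where Twist2 was highest, it was 1.52 (adjusted p = 0.00114). DESeq2 also called Twist2, at a log2 fold change of 0.97 (adjusted p = 0.00985).

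Snai1, a repressor of Cdh1, was nearly level along the palate. It was at 39.0, 38.5 and 41.3 CPM in the anterior and at 37.1, 33.9 and 41.8 CPM in the posterior replicates. The regions overlapped, with both the lowest and the highest value among the posterior libraries. The means were 39.6 ± 1.49 and 37.6 ± 3.99 CPM (SD, n = 3 each), and the log2 fold change of -0.074 (SE 0.11, edgeR adjusted p = 0.684) had a 95% interval of -0.33 to 0.18.

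Snai2, also called Slug and known from the migrating neural crest, was at 96.0, 88.8 and 75.9 CPM in the anterior and at 104, 63.9 and 77.9 CPM in the posterior replicates. Posterior replicate 1 was the highest and posterior replicate 2 the lowest of the 6 libraries, so the regions overlapped. The means were 86.9 ± 10.2 and 82.0 ± 20.4 CPM (SD, n = 3 each), and the log2 fold change was -0.084 (SE 0.18, 95% interval -0.51 to 0.35, edgeR adjusted p = 0.788). Its direction depended on single libraries, since the log2 fold change was 0.069 without posterior replicate 2 and -0.29 without posterior replicate 1.

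Zeb1, a repressor of epithelial genes that acts through CtBP corepressors, lies at chr18:5591860-5775467 on the plus strand. It was at 60.6, 54.3 and 68.5 CPM in the anterior and at 82.5, 87.0 and 92.3 CPM in the posterior replicates. The regions did not overlap, and unlike Twist2 and Zeb2 the posterior libraries lay close together. The means were 61.1 ± 7.08 and 87.3 ± 4.92 CPM (SD, n = 3 each), a log2 fold change of 0.51 (SE 0.11, 95% interval 0.25 to 0.77, edgeR adjusted p = 0.0335), or 1.43-fold. This call was lost when any library other than posterior replicate 1 was left out, at adjusted p-values of 0.154, 0.164 and 0.0520 without anterior replicates 1, 2 and 3 and of 0.122 and 0.106 without posterior replicates 2 and 3, while the log2 fold change stayed between 0.43 and 0.60. Without posterior replicate 1 it was called at an adjusted p of 0.00236. Corrected for merged exon length, which for Zeb1 exceeds its longest transcript, the log2 fold change was 0.29 (adjusted p = 0.178). With the library-group term, which rests on posterior replicate 1, it was 0.43.

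Zeb2, a Smad-binding relative of Zeb1 that is known from the neural crest and the peripheral nervous system, was at 91.7, 83.8 and 78.4 CPM in the anterior and at 56.3, 141 and 141 CPM in the posterior replicates. Posterior replicate 1 was the lowest of all libraries and posterior replicates 2 and 3 were the highest, so the posterior libraries lay on both sides of the anterior ones. The means were 84.6 ± 6.69 and 113 ± 48.9 CPM (SD, n = 3 each), and the log2 fold change was 0.41 (SE 0.32, 95% interval -0.32 to 1.15, edgeR adjusted p = 0.428). Without posterior replicate 1 it was 0.74 (adjusted p = 0.000169), with the library-group term -0.59 (adjusted p = 0.0105), and with the length correction -0.12 (adjusted p = 0.667). No direction can be given for Zeb2 from these libraries.

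**Figure D2:**
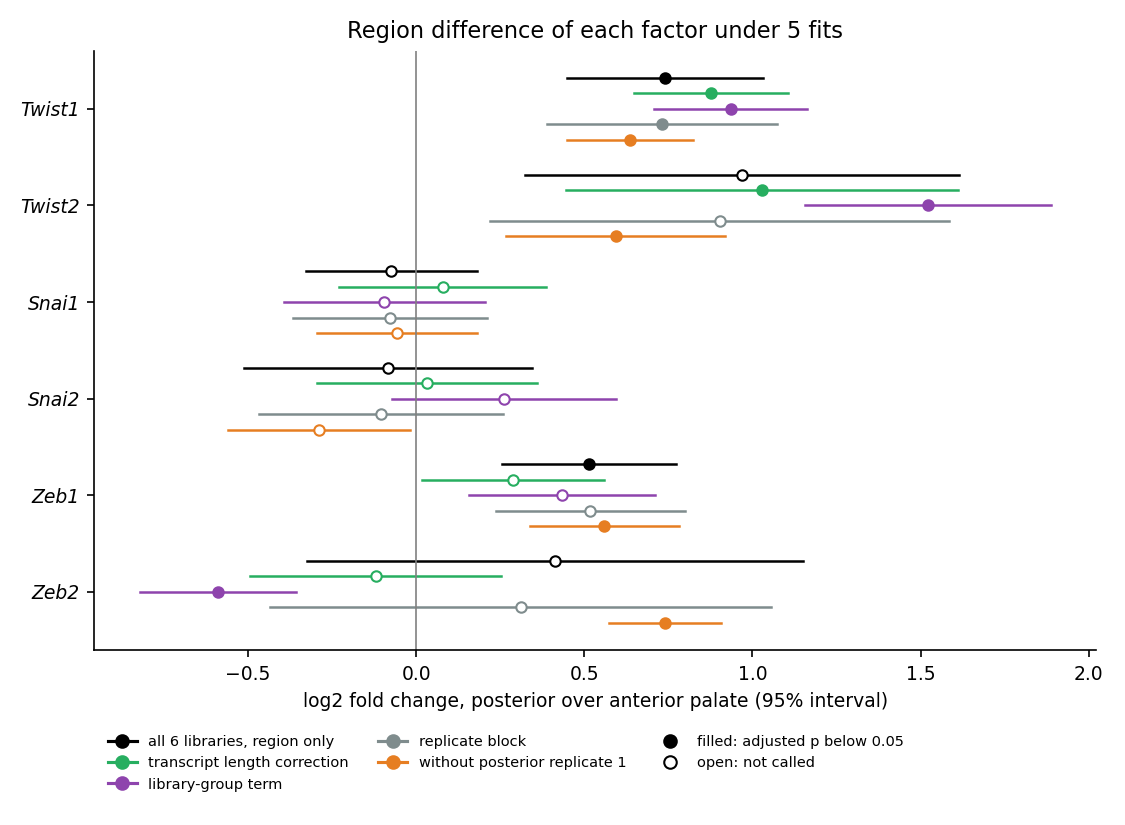
Log2 fold change of each factor, posterior over anterior palate (horizontal axis), with its 95% interval under 5 fits, filled where the adjusted p is below 0.05. Twist1, Twist2 and Zeb1 lie above 0 in all 5, while Zeb2 runs from -0.59 with the library-group term to 0.74 without posterior replicate 1.

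The size of the difference followed merged exon length in the 2 posterior libraries that stood apart. In posterior replicates 2 and 3 the median log2 ratio to the anterior mean was -0.24 and -0.30 over the 2575 genes with merged exons under 2 kb and 0.46 and 0.48 over the 1433 genes of 10 kb or more, while in posterior replicate 1 these medians were 0.056 and -0.031. The ratios of the factors can be set beside those of their length class. Twist1, a short transcript, had log2 ratios of 0.93, 0.53 and 0.72 in posterior replicates 1, 2 and 3, each above the median of its class. Twist2 had 1.50, 0.46 and 0.68, against medians of 0.0041, -0.095 and -0.10 over the 6650 genes of 2 to 5 kb.

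By merged exons both Zeb genes are in the longest class, while their longest single transcripts are 5801 bases for Zeb1 and 9124 for Zeb2. Zeb1 had log2 ratios of 0.43, 0.51 and 0.59. These were above the median of that class by a wide margin in posterior replicate 1 and near it in posterior replicates 2 and 3. The class of 5 to 10 kb, where the longest transcript of Zeb1 would fall, had lower medians of 0.17 and 0.18 in posterior replicates 2 and 3. Zeb2 had -0.59, 0.74 and 0.73, below the median in the first and above it in the others. Snai1 had -0.094, -0.22 and 0.078, and Snai2 had 0.26, -0.44 and -0.16. The 2 groups of libraries and the region cannot be fully told apart, because both libraries that stood apart are posterior.

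**Figure D3:**
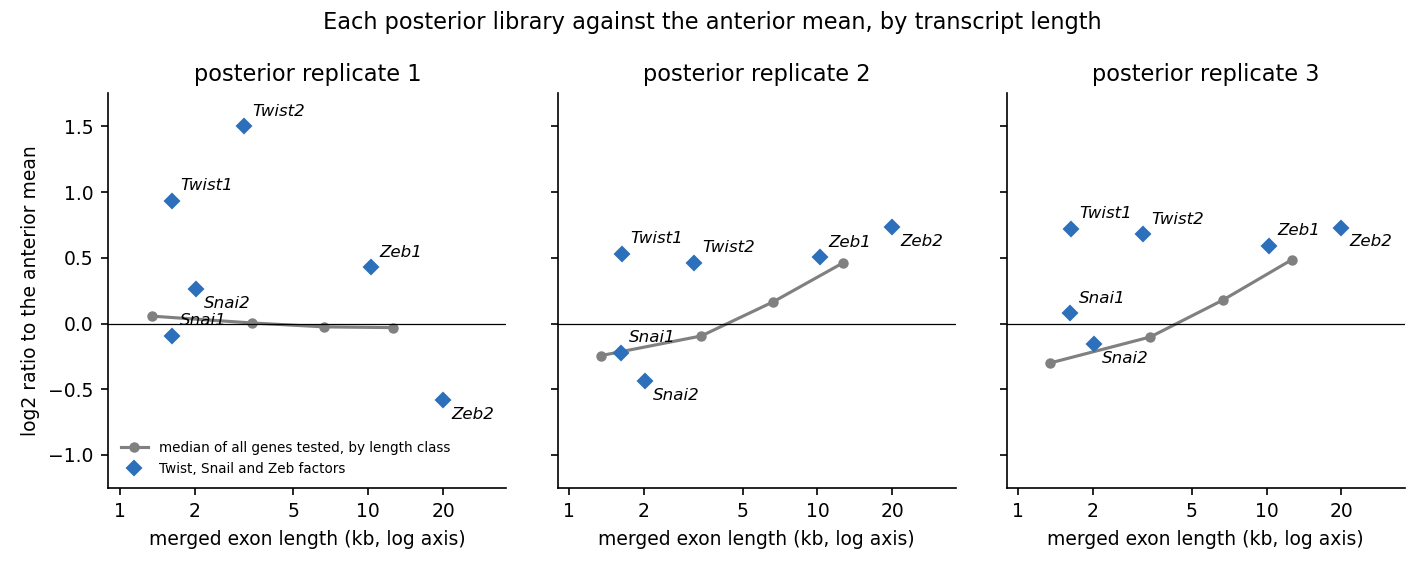
Log2 ratio of each posterior library to the anterior mean (vertical axis) against merged exon length (kb, log axis) for the 6 factors (blue diamonds) and for the median of all genes tested in 4 length classes (grey line). The grey line is flat in posterior replicate 1 and rises with length in replicates 2 and 3, and Twist1 and Twist2 lie above it in all 3.

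Per kilobase of merged exons, the level differed between the factors far more than between the regions. In the anterior palate Twist1 stood at 106.9 ± 7.45 CPM per kb (SD, n = 3), followed by Snai2 at 43.0 ± 5.04 and Snai1 at 24.4 ± 0.922. Twist2 at 7.32 ± 1.15, Zeb1 at 5.95 ± 0.690 and Zeb2 at 4.24 ± 0.335 CPM per kb came last. In the posterior palate the order was the same, with Twist1 at 178 ± 25.0, Snai2 at 40.6 ± 10.1, Snai1 at 23.2 ± 2.46, Twist2 at 14.3 ± 5.83, Zeb1 at 8.50 ± 0.480 and Zeb2 at 5.65 ± 2.45 CPM per kb. Twist1, Snai2 and Snai1 did not overlap each other in either region by merged exons, whereas Twist2 overlapped Zeb1 in the anterior and Snai1 in the posterior libraries. The order of the last 3 depended on the length used. Per kb of the longest transcript, Zeb1 was at 10.5, Zeb2 at 9.28 and Twist2 at 9.20 in the anterior palate, and Twist2 was at 18.0, Zeb1 at 15.04 and Zeb2 at 12.4 in the posterior palate.

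**Figure D4:**
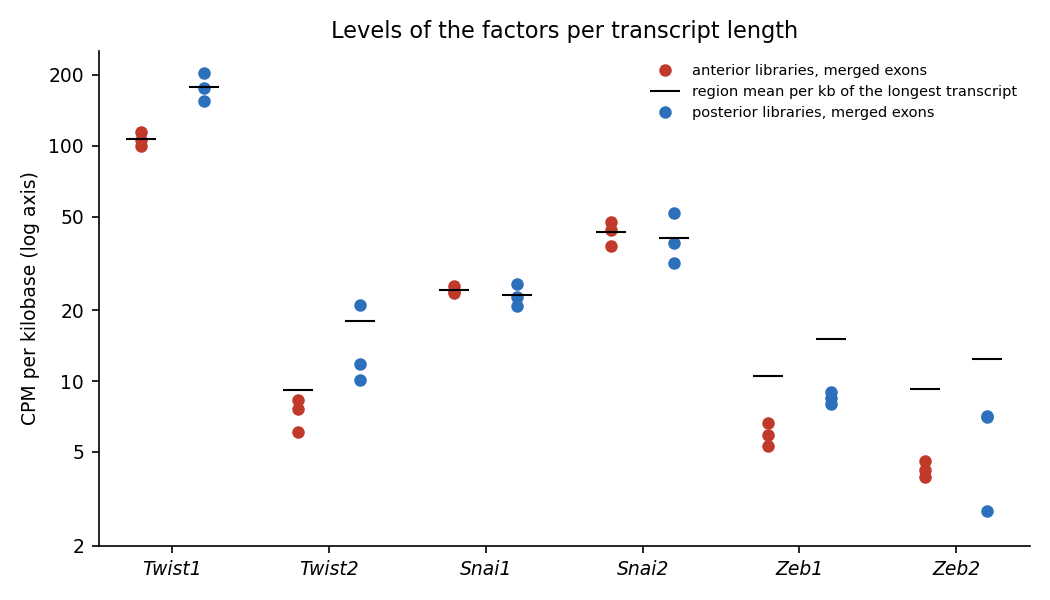
CPM per kilobase (vertical log axis) of each factor in the anterior (red) and posterior (blue) libraries, by merged exon length (points), with the region mean by the length of the longest transcript (black bars). Twist1 stands highest in both regions, at 106.9 and 178 CPM per kb in the means, and the bars of Zeb1 and Zeb2 lie above all their points.

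The balance of the paralogs was compared within each library, where library size plays no part. The log2 ratio of Twist1 to Twist2 was 3.08, 2.83 and 2.83 in the anterior and 2.32, 2.96 and 2.93 in the posterior replicates. The regions overlapped, with posterior replicate 1 lowest, and the difference of -0.17 did not pass an exact permutation test (two-sided p = 0.6). With 3 libraries against 3 the smallest p this test can give is 0.1, so it cannot show whether the ratio differs.

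The log2 ratio of Snai2 to Snai1 was 1.3, 1.21 and 0.88 in the anterior and 1.49, 0.92 and 0.90 in the posterior replicates, a difference of -0.027 (exact permutation p = 1, two-sided). The log2 ratio of Zeb2 to Zeb1 was 0.60, 0.62 and 0.20 in the anterior and -0.55, 0.70 and 0.61 in the posterior replicates, a difference of -0.22 (exact permutation p = 0.9, two-sided). Zeb2 was below Zeb1 in posterior replicate 1 and above it in the other 5 libraries. Over the 3 pairs the Benjamini-Hochberg adjusted p-values were all 1. The sign of each difference depended on single libraries. The differences of the Twist and Zeb pairs turned to 0.035 and 0.18 without posterior replicate 1. That of the Snail pair turned to 0.059, 0.013, 0.066 and 0.075 without anterior replicate 1, anterior replicate 2, posterior replicate 2 and posterior replicate 3, and was -0.22 without posterior replicate 1.

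By the root-mean-square distance between centred log2 CPM profiles over the 6 libraries, among 10379 genes with a mean of at least 10 CPM, the genes nearest to Twist1 were Il11ra1 (0.045), Sardh (0.070) and Tspan5 (0.075), and those nearest to Twist2 were Npas3 (0.106), Sh3gl3 (0.153) and Myl6b (0.165). Snai1 lay nearest to Aaed1 (0.028), Chtf18 (0.035) and Tmem185b (0.038), and Snai2 to Mrps16 (0.058), Hpgd (0.062) and Slc7a6os (0.067). Zeb1 lay nearest to Tnks1bp1 (0.033), Pdgfc (0.066) and Elac1 (0.073), and Zeb2 to Kit (0.079), Ralgapa2 (0.089) and Pikfyve (0.093). Among the factors themselves, Twist1 and Zeb1 were at a distance of 0.196, Snai1 and Snai2 at 0.233, Twist1 and Twist2 at 0.242 and Zeb1 and Zeb2 at 0.440. The median distance to all these genes was 0.424 for Twist1, 0.600 for Twist2, 0.203 for Snai1, 0.279 for Snai2, 0.327 for Zeb1 and 0.497 for Zeb2, so that the Snail pair lay no nearer than the median gene to Snai1. These distances describe 6 libraries and carry no test.

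Annotated genes overlap 3 of the factors. Zeb2os, the antisense transcript at the start of Zeb2, had 27, 31 and 28 counts in the anterior and 29, 27 and 28 in the posterior replicates (log2 fold change -0.15, edgeR adjusted p = 0.683), so it did not follow the split of Zeb2 between the posterior libraries. Gm29100, antisense at the start of Twist2, had a log2 fold change of 0.19 (adjusted p = 0.666), and Gm10125, on the other strand at the start of Zeb1, had one of 0.32 (adjusted p = 0.382). Gm29101, annotated on the same strand within an intron of Twist2, had 26, 44 and 23 counts in the anterior and 90, 14 and 7 in the posterior replicates, and like Twist2 it was highest in posterior replicate 1.

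Of the other bHLH genes of the Twist family, Msc (musculin, known from skeletal muscle precursors of the head) rose in the posterior palate. It was at 0.151, 0.508 and 0.604 CPM in the anterior and at 5.30, 7.35 and 5.54 CPM in the posterior replicates, a log2 fold change of 3.83 (SE 0.40, edgeR adjusted p = 0.00180) without overlap. The first anterior value is under the limit of 3 counts. It was the only call among the 4 of 7 family members tested, beside 4.87% of all genes called higher in the posterior, and nothing is read from this count. Its counts reached the minimum of 10 in the posterior libraries alone, so it passed the filter through the region where it is high, and it was not tested when any posterior replicate was left out or when 10 counts were required in every library. Hand2, which patterns the branchial arches, had a log2 fold change of 3.03 (adjusted p = 0.150) that rested on 3.51 and 14.1 CPM in posterior replicates 1 and 2 against 0.274 CPM in replicate 3, and it was called without posterior replicate 1 at 3.29 (adjusted p = 0.0446). Scx, a tendon regulator, had 1.02 (adjusted p = 0.182), and Tcf15 had 0.24 (adjusted p = 0.723). Ferd3l was listed at 0 in all 6 libraries.

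Markers of skeletal muscle, like Msc, Twist1 and Zeb1, were higher in the posterior palate. Among the posterior libraries the summed markers and Zeb1 were highest in replicate 3, Twist1 in replicate 1 and Msc in replicate 2. The 10 markers added up to 12.3 to 16.1 CPM in the anterior and to 802, 630 and 1121 CPM in the posterior replicates. All 10 of 10 were called higher in the posterior palate, beside 4.87% of all genes tested. Of these, 5 were under 10 counts in at least 1 anterior library, and Myf5 and Myod1, factors of muscle commitment, were under it in all 3, so that they passed the count filter through the region where they are high. The 8 chondrocyte markers added up to 238 to 294 CPM in the anterior and to 657, 856 and 861 CPM in the posterior replicates. Of the 7 tested, 3 were called higher in the posterior, beside the same 4.87%. The part of these cell types in the levels of the factors was not tested.

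The dimer partners were not called. Among the E proteins, 0 of 3 were called, beside 7.46% of all genes tested, which over so few genes is no result about the list, with log2 fold changes of 0.16 for Tcf4, -0.041 for Tcf3 and 0.48 for Tcf12 (edgeR adjusted p = 0.577, 0.818 and 0.219). Tcf12 was at 204, 209 and 223 CPM in the anterior and at 193, 332 and 363 CPM in the posterior replicates, so that like Zeb2 it was lowest in posterior replicate 1 and highest in posterior replicates 2 and 3. Among the Id inhibitors 0 of 4 were called, with log2 fold changes of -0.24 for Id3, -0.19 for Id1, 0.099 for Id2 and 0.35 for Id4 and a median of -0.047. When posterior replicate 1 was left out, 1 of the 3 E proteins (Tcf12, log2 fold change 0.72) and 2 of the 4 Id genes (Id1, -0.35, and Id3, -0.31) were called, beside 46.4% of all genes tested. With the library-group term Tcf4 (0.53) and Id4 (0.72) were called, beside 7.61%.

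The Snail relatives Snai3, Scrt1 and Scrt2 did not pass the count filter and were not tested. Snai3 reached the count minimum in posterior replicates 1 and 3 alone, with 11 and 14 counts. Scrt1 and Scrt2 reached it in no library. Together the Snail relatives added up to 0.218 to 0.530 CPM in the anterior and 0.971 to 1.15 CPM in the posterior libraries. Of the corepressors that Snail and Zeb factors recruit, 0 of 12 were called, beside 7.46% of all genes tested, with a median log2 fold change of 0.033. Hdac2, a histone deacetylase, had -0.20 (edgeR adjusted p = 0.340), Ctbp1, the CtBP corepressor, -0.12 (adjusted p = 0.538), Smarca4, the remodeller ATPase Brg1, 0.11 (adjusted p = 0.487), and Loxl2, a lysyl oxidase, 0.042 (adjusted p = 0.844). Leaving out posterior replicate 1 gave 8 calls among the 12, beside 46.4% of all genes tested. Of the genes for phosphorylation and turnover of Snail protein, 0 of 8 were called, beside the same 7.46%, with log2 fold changes of -0.058 for the casein kinase gene Csnk1a1, 0.15 for Gsk3b, the kinase that marks Snail for degradation, 0.17 for Fbxo11 and -0.51 for the kinase gene Pak1 (adjusted p = 0.694, 0.329, 0.392 and 0.128). Leaving out posterior replicate 1 gave 2 calls among these 8, Fbxo11 (0.28) and Pak1 (-0.62), beside 46.4% of all genes tested. Transcript levels carry no information on the stability of Snail protein.

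**Figure D5:**
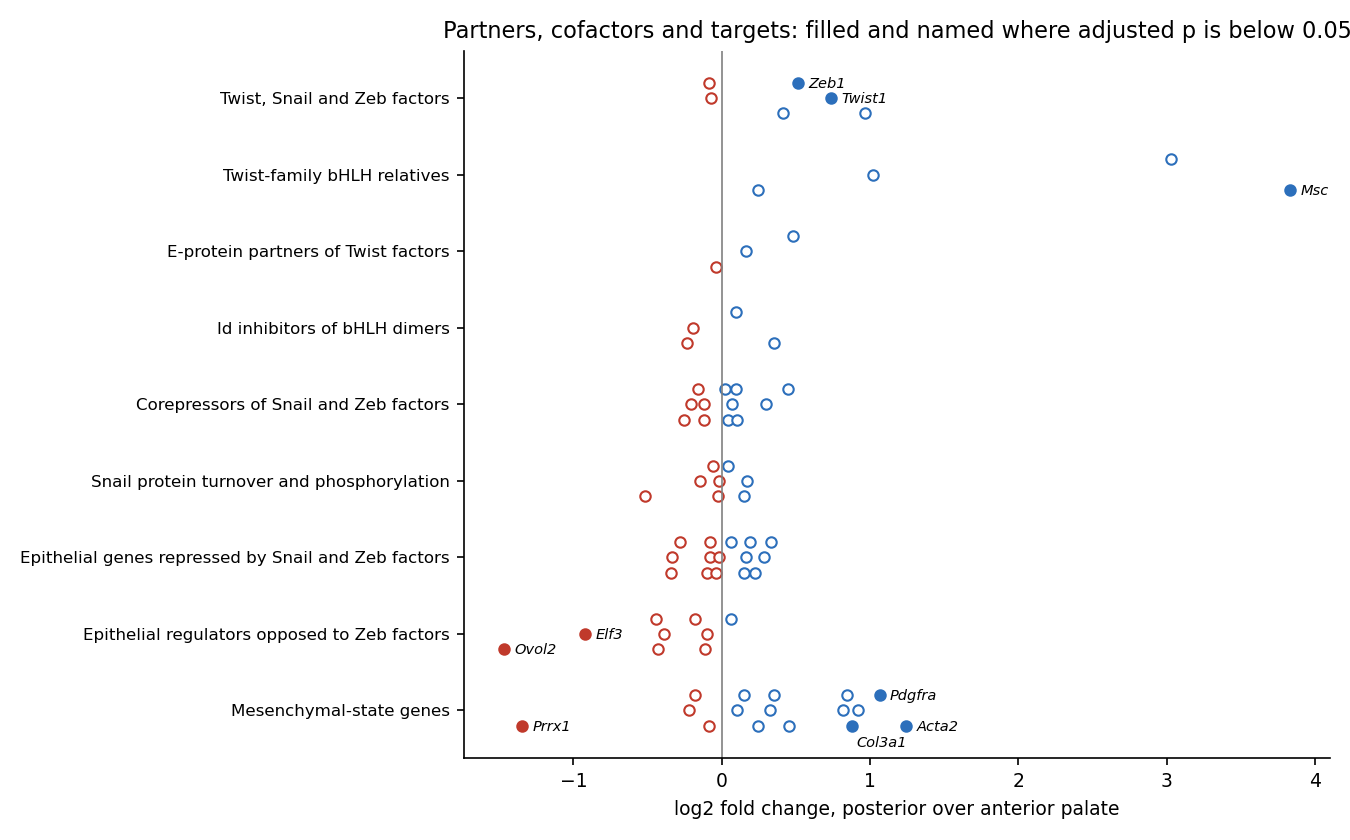
Log2 fold change, posterior over anterior palate (horizontal axis), of the factors and of the tested genes in 8 lists of partners, cofactors and targets, filled and named where the adjusted p is below 0.05 (blue higher in the posterior, red higher in the anterior). Msc stands at 3.83, Ovol2 at -1.47 and Prrx1 at -1.34, while the E proteins, Id genes, corepressors, Snail turnover genes and repressed epithelial genes hold no filled point.

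Of the epithelial genes that Snail and Zeb factors are known to repress, 0 of 15 were called, with a median log2 fold change of -0.020, beside 7.46% of all genes tested. Over 15 genes a count of 0 lies near that share and is no result about the list. Cdh1, which encodes E-cadherin, was at 175, 153 and 151 CPM in the anterior and at 186, 147 and 140 CPM in the posterior replicates, with overlap (log2 fold change -0.020, edgeR adjusted p = 0.935). Epcam, an epithelial adhesion molecule whose promoter window is shown above, had -0.039 (adjusted p = 0.891). The desmosomal genes Dsp and Jup had 0.15 (adjusted p = 0.419) and -0.097 (adjusted p = 0.625). Cldn4, Krt8 and Muc1, the other genes with a window above, had log2 fold changes of 0.29, -0.077 and -0.28 (adjusted p = 0.435, 0.789 and 0.599). Leaving out posterior replicate 1 gave 2 calls among the 15, Dsp (0.24) and the laminin gene Lama5 (0.52), beside 46.4% of all genes tested. The library-group term gave 1 call, Cldn4 (0.76), beside 7.61%.

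Of the epithelial regulators that oppose Zeb factors, 2 of 9 fell in the posterior palate, beside 2.59% of all genes tested, with a median log2 fold change of -0.39. Ovol2, a zinc-finger repressor of Zeb1, was at 5.83, 6.31 and 4.66 CPM in the anterior and at 2.91, 1.51 and 1.64 CPM in the posterior replicates, without overlap (log2 fold change -1.47, SE 0.30, edgeR adjusted p = 0.0270). Elf3, an epithelial Ets factor, was at 19.1, 12.6 and 16.6 CPM in the anterior and at 8.74, 8.44 and 8.28 CPM in the posterior replicates (log2 fold change -0.92, SE 0.18, adjusted p = 0.0207). Esrp1, an epithelial splicing factor, had -0.10 (adjusted p = 0.637), and Ehf, an epithelial Ets factor like Elf3, had -0.45 (adjusted p = 0.404). Both calls were lost with the library-group term, where Ovol2 had a log2 fold change of -0.94 (adjusted p = 0.109) and Elf3 one of -0.88 (adjusted p = 0.0760). The count was 0 there and when anterior replicate 1, anterior replicate 3, posterior replicate 2 or posterior replicate 3 was left out, and 1 without anterior replicate 2. In those 5 fits that left out a library the log2 fold change ranged from -1.59 to -1.30 for Ovol2 and stayed negative for Elf3, from -0.92 to -0.78 where its call was lost. Without posterior replicate 1 the count was 3, Ovol2 (-1.82), Elf3 (-0.94) and Grhl3 (-0.43), beside 46.4% of all genes tested. The 8 epithelial markers added up to 1773 to 1922 CPM in the anterior and to 2359, 1584 and 1286 CPM in the posterior replicates. Of these, 2 were called higher in the anterior, beside 2.59% of all genes tested. The part of the epithelium in the values of the regulators was not tested.

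Of the 17 mesenchymal-state genes 16 were tested, with a median log2 fold change of 0.34, and 3 were called higher in the posterior and 1 higher in the anterior palate, beside 4.87% and 2.59% of all genes tested. Prrx1, a homeobox factor of limb and craniofacial mesenchyme, fell from 1076, 1034 and 1056 CPM in the anterior to 389, 399 and 459.5 CPM in the posterior replicates (log2 fold change -1.34, SE 0.11, edgeR adjusted p = 0.000604). It thus ran opposite to Twist1 and Zeb1. Acta2, smooth muscle actin, rose with a log2 fold change of 1.24 (adjusted p = 0.00475), the receptor gene Pdgfra with 1.06 (adjusted p = 0.0406) and the collagen gene Col3a1 with 0.88 (adjusted p = 0.0415). Pdgfra was at 296, 282 and 301 CPM in the anterior and at 381, 679 and 778 CPM in the posterior replicates, so that posterior replicate 1 lay nearest to the anterior libraries. Leaving out posterior replicate 1 raised the number called from 4 to 10, as it raised the share of all genes called from 7.46% to 46.4%, and leaving out any other library lowered it to 2, since Pdgfra (adjusted p from 0.112 to 0.170) and Col3a1 (adjusted p from 0.111 to 0.201) were then not called. Their log2 fold changes in those fits were 0.86 to 1.08 and 0.73 to 0.93. Pdgfra also lost its call with limma-voom (adjusted p = 0.0540). With the library-group term 5 genes were called, Prrx1, Acta2, Pdgfra, Vim (0.53) and Cdh2 (-1.03), and the log2 fold change was smaller for Pdgfra, 0.38 (adjusted p = 0.0437), and for Col3a1, 0.44 (adjusted p = 0.0646). Prrx1 and Acta2 were called under all 10 alternatives and in all 6 fits that left out a replicate.

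Of the other cell types the shelf can hold, the 8 endothelial markers added up to 462 to 481 CPM in the anterior and to 406, 605 and 651 CPM in the posterior replicates. Of these, 0 were called, beside 7.46% of all genes tested. The endothelial sum had the order of Zeb2 and of Tcf12, with posterior replicate 1 lowest and replicates 2 and 3 highest. Not every marker in the list had this order, since Cldn5 was lowest in posterior replicate 3. The 8 glial markers added up to 71.0 to 78.3 CPM in the anterior and to 76.0, 116 and 87.7 CPM in the posterior replicates. Of these, 1 was called higher in the posterior, beside 4.87% of all genes tested. The 8 myeloid markers were nearly level, at 117 to 131 CPM and at 129, 133 and 131 CPM, with 0 called beside the same 7.46%. Neuronal markers, at 105 to 116 CPM in the anterior, were at 166, 425 and 98.0 CPM in the posterior replicates. Of the 7 tested, 2 were called higher in the posterior, beside the same 4.87%. Over lists this short such counts are no result about the cell types. The part of these cell types in the level of Zeb2 was not tested.

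Of the remaining lists, osteoblast markers were at 1990 to 3592 CPM in the anterior and at 295, 511 and 1847 CPM in the posterior replicates. Dental mesenchyme markers were at 238 to 531 CPM and at 252, 191 and 232 CPM. Called higher in the anterior were 1 of 7 osteoblast and 2 of 5 dental mesenchyme markers, beside 2.59% of all genes tested. Erythroid markers were at 737 to 866 CPM and at 988, 496 and 556 CPM, with 0 of 7 called, beside 7.46% of all genes tested in either direction.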

How the data were processed

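For each library the authors deposited read counts per Ensembl gene, without normalization, unstranded and for each strand, in the layout STAR writes. Per the labels and the study's methods, reads were mapped with HISAT2 to mm10 and counted with StringTie, and regions were compared with DESeq2 1.30.1. The annotation behind the counts is not given in the sources used here. Reverse-stranded counts were used, and reads mapping to several places and unmapped reads stayed out of library sizes. The 6 libraries, 3 per region, were grouped by the tissue label.

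A gene was tested if 3 or more libraries held 10 or more of its counts. Regions were compared by edgeR (4.0.16, under R 4.3.3) with TMM normalization, the quasi-likelihood test and Benjamini-Hochberg adjustment at 0.05, without covariates, and CPM are TMM-normalized. Symbols, positions and exon lengths came from GENCODE M21, which paired 52073 of 56691 identifiers with a symbol. The fits were tested on simulated data. No 2 replicates were alike within sampling noise (chi-square per gene 3.73 to 68.0). Counting limits cover counting error only.

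The factors and all lists were chosen with earlier results of these data known. All 6 factors were named. In each pathway list up to 4 genes were named, those called by adjusted p and then those of highest mean CPM, as were the 3 genes of nearest profile to each factor and genes overlapping a factor. Cldn4, Krt8, Muc1, Ferd3l, Lama5, Grhl3, Vim, Cdh2, Myf5 and Myod1 fall outside this rule and were chosen after their values were seen. Alternatives were DESeq2 1.42.0, limma-voom (limma 3.58.1), RLE and library-size scaling, other count filters, unstranded counts, a block for the replicate number, a library-group term (posterior replicates 2 and 3 against the rest, by the gap in multiply mapped reads), a length correction (loess, span 0.3), a pseudocount of 5 in place of 0.5 CPM for ratios, and leaving out each replicate. The length correction used merged exon length, which exceeds the longest annotated transcript for Twist2, Zeb1 and Zeb2. The single-cell data of the study were not analysed here.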

Additional observations from a re-analysis of the deposited data

Results flagged for a closer look

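Reads on the strand opposite to a factor were not used in the comparisons, and for 3 factors they exceeded 3 counts in each library. They made up 2.27% of the reads on both strands for Twist1, 1.91% for Twist2 and 3.39% for Zeb2, against 4.495% over all genes. For Twist1 they numbered 51, 48 and 51 raw counts in the anterior and 113, 96 and 78 in the posterior replicates. The raw counts on its own strand did not overlap between the regions either. Those were 2149, 2377 and 2164 in the anterior and 4453, 3488 and 4195 in the posterior replicates. Reads on the opposite strand came to 6 to 14 counts per library for Twist2 and 35 to 55 for Zeb2.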

How the results depend on the processing

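Twist1 kept its direction in every alternative and leave-one-out fit, and its call in 10 of 10 alternatives with all libraries and 4 of 6 leave-one-out fits. Twist2 was called with DESeq2 (log2 fold change 0.97), without the low-count filter (0.97), with the length correction (1.03) and, resting on posterior replicate 1 alone, with the library-group term (1.52). The length correction turned Snai1 to 0.079, Snai2 to 0.032 and Zeb2 to -0.12, and the library-group term turned Snai2 to 0.26 and Zeb2 to -0.59. Zeb1 lost its call with the replicate block (0.52, edgeR adjusted p = 0.0615), the library-group term (0.43) and the length correction (0.29). The cause was not tested. Of the mesenchymal-state genes, 7 were called with DESeq2 and without the filter and 2 with the replicate block, against 4. With one replicate left out at a time, the log2 fold changes ranged from 0.64 to 0.83 for Twist1, 0.59 to 1.17 for Twist2, -0.15 to -0.0021 for Snai1, -0.29 to 0.069 for Snai2, 0.43 to 0.60 for Zeb1 and 0.22 to 0.74 for Zeb2, the number of factors called from 0 to 4, and all genes called from 498 to 7119, most without posterior replicate 1. All genes called were 1978 with DESeq2 and 2162 without the filter. Replicate numbers did not pair the samples (same-number correlations -0.053, 0.045 and 0.036), and the replicate block left 1 factor called and ended the calls of Pdgfra (adjusted p = 0.0578) and Col3a1 (adjusted p = 0.0512). Over all settings the adjusted p ranged from 1.11e-05 to 0.0843 for Twist1, 0.00114 to 0.275 for Twist2, 0.00236 to 0.178 for Zeb1 and 0.000169 to 0.789 for Zeb2.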
